A study of Homo sapiens with 6 samples.

Results

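CXCL10, CXCL11, CCL20 and CXCL1 are small secreted proteins of the chemokine family, which guide white blood cells along a gradient. Here they are described as measured after knockdown of LOXL2 in MDA-MB-231, an established cell line from a human breast cancer. The 4 genes were chosen by their names among the entries of the authors' deposited table of log ratios, and with their values known. They made up 4 of the 724 entries of the authors' deposited table, with 1 entry each. All cells had been infected with a lentivirus, and the virus carried either a short hairpin directed at LOXL2 (group shLOXL2, with 3 arrays) or a hairpin used as control (group shControl, also 3). LOXL2 is a secreted enzyme that oxidises lysines of collagen and elastin. Total RNA was measured on Affymetrix arrays. The labels name neither the hairpin sequences nor separate cultures. The spread behind every p-value is therefore that between these arrays, and it may be technical. For shControl replicates 2 and 3 the source name reads shLOXL2, against their titles and knockdown field, and they were kept as controls.

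Chemokines act on receptors that span the membrane of the responding cell, and each receptor marks certain white blood cells. CXCL10 and CXCL11 bind CXCR3, which activated T cells and natural killer cells carry. CCL20 is the chemokine ligand of CCR6, found on dendritic cells, B cells and a subset of helper T cells. CXCL1 binds CXCR2 and draws neutrophils. Transcription of all 4 genes is known to be induced by NF-kB, a family of factors that binds kappa B sites, and that of CXCL10 and CXCL11 also by interferons, through factors of the STAT and IRF families.

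The promoters of the 4 genes are shown first, as a description of sequence that does not draw on the values of the authors' deposited table. Each line is the 250 bases before the gene start given by RefSeq (GRCh38.p14), written 5′ to 3′ on the gene's strand. Capitals mark matches, on either strand, to a broad kappa B pattern (GGG, any 5 bases, CC) and to an interferon response pattern (GAAA, any 2 bases, GAAA). The stretches are chr4:76023498-76023747 (minus strand) for CXCL10, chr4:76036071-76036320 (minus strand) for CXCL11, chr2:227813592-227813841 (plus strand) for CCL20 and chr4:73869143-73869392 (plus strand) for CXCL1.
CXCL10: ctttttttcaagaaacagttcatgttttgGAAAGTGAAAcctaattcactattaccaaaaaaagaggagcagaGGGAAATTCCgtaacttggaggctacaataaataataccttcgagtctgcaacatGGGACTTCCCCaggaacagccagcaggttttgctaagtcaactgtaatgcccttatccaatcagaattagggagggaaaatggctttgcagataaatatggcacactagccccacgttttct
CXCL11: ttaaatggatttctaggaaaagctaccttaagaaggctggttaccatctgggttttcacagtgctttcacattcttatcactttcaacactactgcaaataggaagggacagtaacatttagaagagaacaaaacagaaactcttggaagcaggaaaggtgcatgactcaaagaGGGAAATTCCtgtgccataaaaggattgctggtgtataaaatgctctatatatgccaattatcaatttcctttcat
CCL20: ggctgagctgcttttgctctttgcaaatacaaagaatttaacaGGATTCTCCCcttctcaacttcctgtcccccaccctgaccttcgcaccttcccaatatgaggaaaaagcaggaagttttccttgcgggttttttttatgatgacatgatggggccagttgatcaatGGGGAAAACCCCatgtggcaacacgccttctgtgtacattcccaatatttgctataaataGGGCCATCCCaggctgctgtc
CXCL1: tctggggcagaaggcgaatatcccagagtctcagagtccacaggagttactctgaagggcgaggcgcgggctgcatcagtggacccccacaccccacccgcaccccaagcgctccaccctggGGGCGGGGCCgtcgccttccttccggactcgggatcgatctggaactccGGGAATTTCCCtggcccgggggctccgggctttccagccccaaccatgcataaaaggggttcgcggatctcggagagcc

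A narrower kappa B pattern (GGGA, any 4 bases, CC, on either strand) matched in all 4 promoters, from 250 bases before to 50 after the start. CXCL10 held it at positions -177 to -168 and -122 to -113, counted from the start. CXCL11 held it once, at -76 to -67. CCL20 held it at -207 to -198, -80 to -71 and -21 to -12, and CXCL1 at -79 to -70 with an overlapping match at -78 to -69 on the other strand. This pattern stood in 25.1% of 27305 promoters of the same length and in 36.4% of 33 chemokine promoters, the 4 included. Of 46 chemokine ligands only these 33 had a promoter among those searched, so such shares do not cover the whole family. The broad pattern stood in 58.0% and 51.5%. CCL28, the other chemokine in the authors' deposited table, had no match to the narrower pattern. Among promoters of genes in the authors' deposited table, the narrower pattern stood in 30.2% of the 301 listed higher and in 31.1% of the 193 listed lower, so its share was much the same in both directions. A match is a description of letters and shows no binding.

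Within these matches, 3 of the 4 genes held the same 10 letters, GGGAAATTCC. It lies on the gene's own strand in CXCL10 (-177 to -168) and CXCL11 (-76 to -67), and on the opposite strand in CXCL1 (-78 to -69). This exact site was picked after the sequences had been read. It occurred in 44 of the 27305 promoters (0.161%) and in 7 of 33 chemokine promoters searched, those of CXCL1, CXCL2, CXCL3, CXCL5, CXCL6, CXCL10 and CXCL11. Of these 7, CXCL2, CXCL3, CXCL5 and CXCL6 were not in the authors' deposited table. In all, 6 of the 7 CXCR2 ligands held the narrower kappa B pattern, and of those 6 CXCL1 alone had an entry in the authors' deposited table.

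The interferon response pattern matched in 1 of the 4 promoters. CXCL10 held it at -221 to -212, and no match was found in the windows of CXCL11, CCL20 and CXCL1. It stood in 3.65% of all promoters, in 4.65% of the 301 of genes listed higher and in 5.18% of the 193 listed lower. As a check of the pattern, it stood in 66.7% of 36 promoters searched, from the 48 interferon-stimulated genes. Some of these lacked it, so a missing match does not show that CXCL11 has no such element. Among the 33 chemokine promoters the pattern stood in 2, those of CXCL9 and CXCL10, and CXCL9 was not in the authors' deposited table. A site for AP-1 (TGANTCA) lay at -87 to -81 of CXCL11, a pattern held by 7.76% of all promoters and 21.2% of the chemokine promoters. TATA boxes (TATAAA) lay at -42 to -37 of CXCL11 and -29 to -24 of CCL20, against 12.0% of all promoters and 48.5% of the chemokine promoters. The promoter of CXCL1 was rich in G and C (65.6%), whereas those of CXCL11 (37.2%) and CXCL10 (40.8%) were below the lower quartile of all promoters (46.0%) and that of CCL20 was near it (46.8%).

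**Figure D1:**
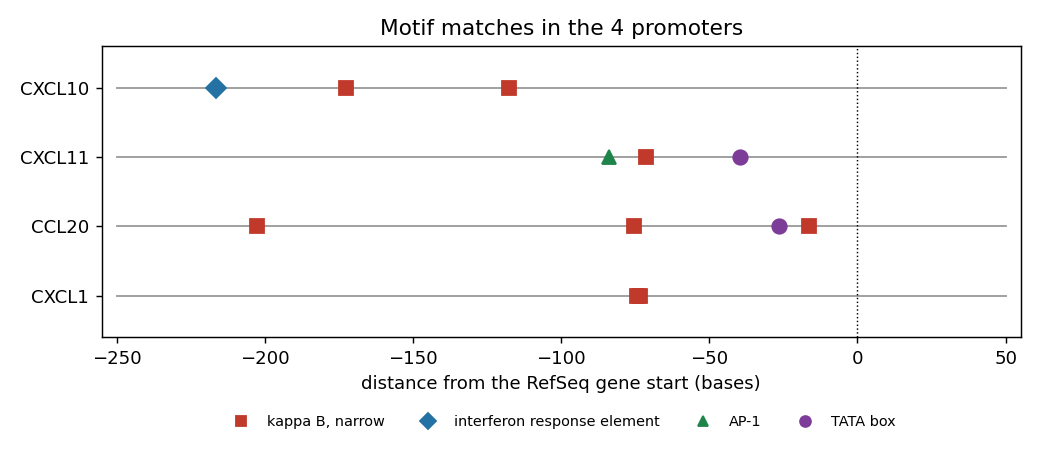
Motif matches in the 4 promoters, by distance from the RefSeq gene start in bases (the narrower kappa B pattern, the interferon response pattern, AP-1 and the TATA box; each symbol is the middle of a match, on either strand). Kappa B matches stand in all 4 rows, and the interferon response pattern in the row of CXCL10.

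The CXCR3 ligands stood highest. CXCL10 was listed at 1.84 in the authors' deposited table, the highest of all 724 entries. With a log base of 2, the authors' deposited table thus puts it 3.59-fold higher in shLOXL2 than in shControl cells. CXCL11 had 1.35, or 2.55-fold, and ranked 6 in the authors' deposited table. The direction of the authors' deposited table is not stated in it and was read from LOXL2, the target of the hairpin, which is its lowest entry at -3.04. These values have no replicate error, because the authors' deposited table gives 1 number per entry.

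CCL20, the CCR6 ligand, was listed at 1.29 in the authors' deposited table, or 2.44-fold if log2, at rank 9. It lay 0.06 below CXCL11 and 0.56 below CXCL10 on the scale of the authors' deposited table. CXCL1, the CXCR2 ligand, was far lower in the ranking of the authors' deposited table, with 0.68, or 1.60-fold, at rank 166, a value it shared with GPX4, CIT and LOC644714. The step from CCL20 to CXCL1 was 0.60 in the authors' deposited table, wider than that from CXCL10 to CCL20. As means of the authors' deposited table, the CXCR3 ligands had 1.60 and the other 2 chemokines 0.98, and the latter mean joins values on either side of 1. No spread between replicates can be set against these steps.

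All 4 genes were listed higher, as were 56.9% of all entries of the authors' deposited table, and nothing is read from that count because the same values chose the genes. CXCL10, CXCL11 and CCL20 were among the 40 entries (5.52%) of the authors' deposited table with 1 or more, and CXCL1 was not. The smallest entry of the authors' deposited table was 0.54 in size, and the median of its higher entries was 0.65, so CXCL1 lay close to the middle of the higher side. Ranked by size in either direction, CXCL10 was the second of the authors' deposited table after LOXL2. If the entries were natural logs instead, the folds from the authors' deposited table would be 6.31 for CXCL10, 3.85 for CXCL11, 3.62 for CCL20 and 1.98 for CXCL1.

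**Figure D2:**
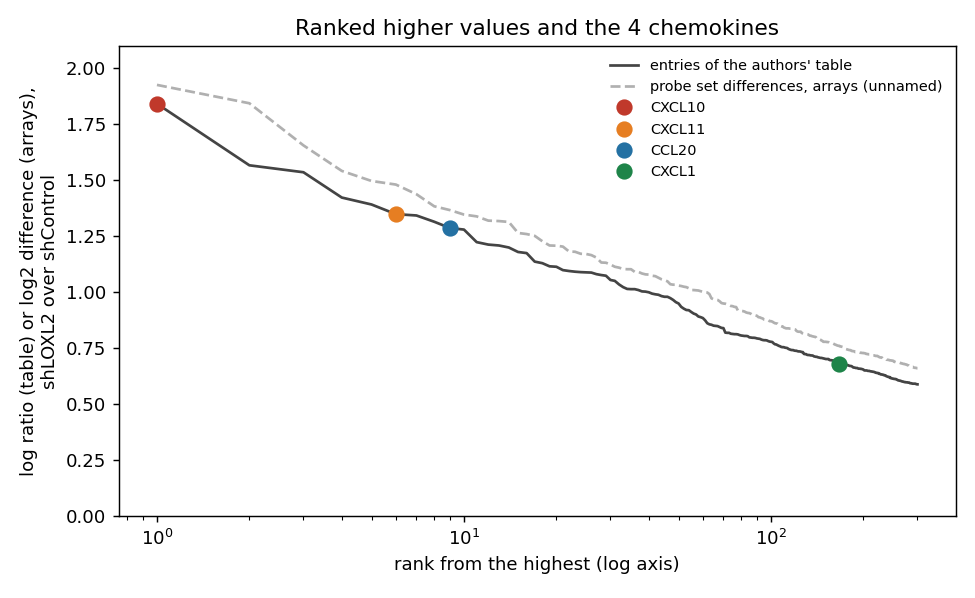
Log ratios of the 300 highest entries of the authors' deposited table (solid line) and the 300 highest log2 group differences of unnamed probe sets on the arrays (dashed line), against rank on a log axis, with the 4 chemokines as points. CXCL10, CXCL11 and CCL20 lie at ranks 1, 6 and 9, and CXCL1 at rank 166.

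The genes with values nearest to each chemokine came from several functions, over this 1 comparison. Below CXCL10 the authors' deposited table gave COX7C, part of the last complex of the respiratory chain, at 1.57 and the membrane traffic gene MAL2 at 1.54. Around CXCL11 the authors' deposited table had ZNF165 (1.42) and the mitotic kinesin KIF20A (1.39) above, and cyclin B2 (CCNB2, 1.34) and CRLF2 (1.31) below. CRLF2 is a subunit of the receptor for the cytokine TSLP. CCL20 was followed in the authors' deposited table by BIRC3, a ubiquitin ligase of the TNF receptor pathway and a known NF-kB target, at 1.28, and by CKS2, a partner of cyclin-dependent kinases, at 1.22. Next to CXCL1 stood SHCBP1 (0.69) and UGP2 (0.68) above, and MPZL3 (0.68) and the centromere gene HJURP (0.68) below, in the authors' deposited table.

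CXCL10 and CXCL11 are neighbours on chromosome 4 by order of start positions, with no other protein-coding gene starting between them in RefSeq. Both were in the authors' deposited table, at 1.84 and 1.35. In this order ART3 comes just before the pair and NUP54 just after it. Where these genes end was not compared, so ART3 may overlap the pair. Neither was in the authors' deposited table, nor was CXCL9, the remaining CXCR3 ligand, which is next to ART3 in this order. CXCL1 lies in another group of chromosome 4, between PF4V1 and PF4, and neither had an entry in the authors' deposited table. In all, 3 of the 13 chemokine genes of chromosome 4 were in the authors' deposited table. CCL20 is the only chemokine gene of the list on chromosome 2, and the 17 on chromosome 17 had no entry in the authors' deposited table. A gene with no entry may have been below the authors' threshold or not measured, which the authors' deposited table does not tell apart. CXCL1, CXCL2 and CXCL3 are close in sequence, and whether the probes of CXCL1 also measure the others was not tested.

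**Figure D3:**
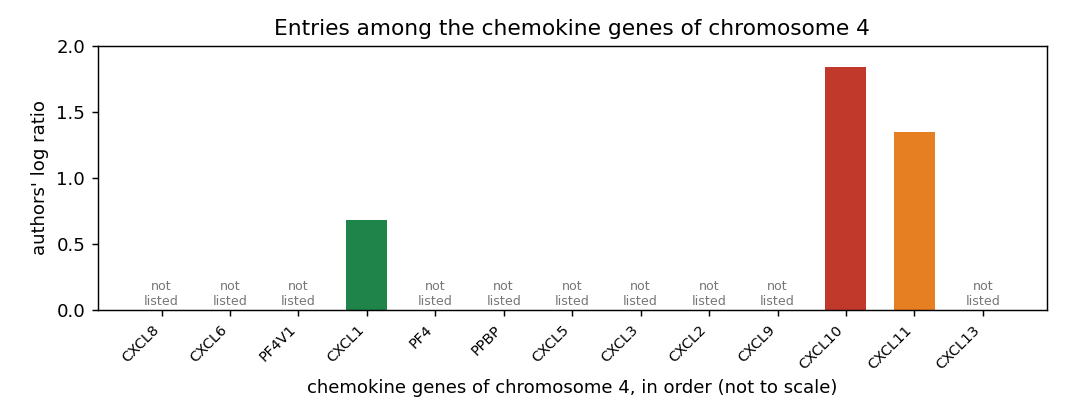
Log ratio from the authors' deposited table for the 13 chemokine genes of chromosome 4, in their order along it (not to scale, no error bars because each entry is 1 number). CXCL10 and CXCL11 stand side by side at 1.84 and 1.35, CXCL1 stands alone in its group at 0.68, and 10 genes were not listed.

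Of 46 chemokine ligands, 5 were in the authors' deposited table, the 4 genes and CCL28, a mucosal chemokine that binds CCR10 and CCR3. CCL28 had 0.70 in the authors' deposited table, next to CXCL1 in size. The share of 10.9% stands beside 2.98% of all protein-coding genes of RefSeq in the authors' deposited table (1.78% higher and 1.20% lower), and 4 of the 5 were the chosen genes. By receptor, the authors' deposited table held 2 of 3 CXCR3 ligands, the CCR6 ligand, 1 of 7 CXCR2 ligands, 0 of 7 other CXC and 1 of 28 other chemokines. None of 23 chemokine receptors had an entry in the authors' deposited table, so CXCR3, CCR6 and CXCR2 have no value here.

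Among other secreted signals the picture was mixed. By the type column of the authors' deposited table, 13 genes were cytokines, 11 listed higher and 2 lower, beside 56.9% of all entries listed higher. The 11 include the 4 chosen chemokines, and CXCL10, CXCL11 and CCL20 were the 3 highest. TNFSF10, the death ligand TRAIL, followed in the authors' deposited table at 1.08. IL1B, a known inducer of CXCL1 and CCL20, had 0.63 in the authors' deposited table, and IL11, of the IL6 family, had -0.75. Entries placed in the extracellular space by the authors' deposited table were split evenly, 30 higher and 30 lower. CXCL10, CXCL11 and CCL20 were the only 3 of these at or above the value of CCL20. That cutoff is the value of a chosen gene, so the 3 pass it by choice and nothing is read from that count.

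Genes upstream of the chemokines are given beside the 2.98% of all protein-coding genes that the authors' deposited table held. Of 22 inducing receptors and adaptors 2 (9.09%) were listed, TLR4, the receptor for lipopolysaccharide, at -1.12 and IRAK2, a kinase of the same pathway, at 0.55 in the authors' deposited table. Of 30 genes of NF-kB signalling and feedback, the authors' deposited table held 2 (6.67%), BIRC3 at 1.28 and TNFAIP3, a feedback inhibitor of NF-kB, at 0.56. None of 10 AP-1 and C/EBP factors had an entry in the authors' deposited table. Of 22 genes of interferon signalling 1 (4.55%) was listed, the factor IRF1, at 0.59 in the authors' deposited table.

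Interferon-stimulated genes were listed in one direction and at smaller sizes than CXCL10 and CXCL11. The authors' deposited table held 8 of 48 (16.7%), all 8 higher, beside 1.78% of all protein-coding genes listed higher and 56.9% of all entries. Their median in the authors' deposited table was 0.58, against 0.65 for all its higher entries. GBP4, a guanylate-binding protein, had 0.78 in the authors' deposited table, IFIT1 0.62, USP18 0.61, BST2 0.58, GBP2 0.57 and IFI35 0.56. The list was written with earlier results of the authors' deposited table known, so its direction is no independent evidence. The values of this list and of the chemokines come from the same comparison and share all arrays.

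Molecules that handle chemokines outside the cell were also looked up, against the same 2.98% of all protein-coding genes in the authors' deposited table. SDC4, the heparan sulphate proteoglycan syndecan 4, had 1.10 in the authors' deposited table and was the 1 of 10 proteoglycans there (10.0%). Of 16 proteases that can cut chemokines, the authors' deposited table held 2 (12.5%), cathepsin S (CTSS) at 0.61 and the collagenase MMP1 at -0.58. None of 18 leukocyte markers and none of 13 markers of this line and its mesenchymal state had an entry in the authors' deposited table, so the cell type could not be checked in it.

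**Figure D4:**
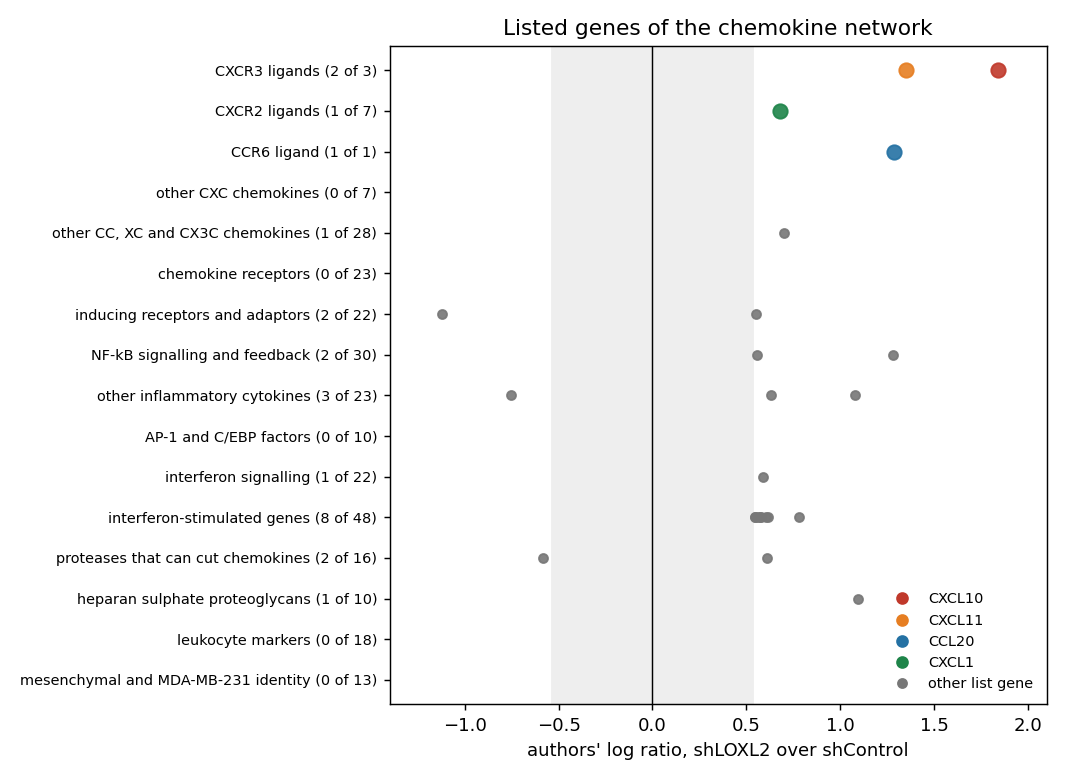
Log ratios from the authors' deposited table for the genes of each list (points; coloured for the 4 chemokines), with the number listed of the number of genes in brackets; the grey band holds sizes below the smallest entry. CXCL10 and CXCL11 lie to the right of every interferon-stimulated gene listed, and the receptor list is empty.

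The arrays give the replicate error for differences of this size, but not by gene name. Their table holds 32321 probe sets identified by number, and no source used here pairs the numbers with genes. No array value is therefore assigned to a chemokine, and the probe sets described below may include those of the chemokines. The medians of the 6 arrays lay between 5.74 and 5.83 on the log2 scale. At ranks 1, 6, 9 and 166 the array differences were 1.93, 1.48, 1.37 and 0.76, which is 1.05 to 1.12 times the entries of CXCL10, CXCL11, CCL20 and CXCL1 in the authors' deposited table. Had the same probe sets been ranked, this ratio would be 1 for log2 entries and 1.44 for natural logs, so log2 is the nearer reading.

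A difference at or above that of CXCL10 in the authors' deposited table was found for 2 probe sets (0.00619%). For CXCL11 there were 9 (0.0278%), for CCL20 14 (0.0433%) and for CXCL1 266 (0.823%). The probe set with the highest difference, 8101126, had log2 values of 8.01, 5.61 and 7.18 in replicates 1, 2 and 3 of shLOXL2, against 5.03, 4.79 and 5.20 in those of shControl. All 3 shLOXL2 values lay above the control values, which differed little, and shLOXL2 replicate 2 lay near them. Its difference of 1.93 (SE 0.552) did not pass in limma (adjusted p = 0.857). The next, 8044669, had shLOXL2 values of 4.11, 4.79 and 5.43 against 2.73, 1.49 and 4.59, so the groups overlapped (difference 1.84, SE 0.750, adjusted p = 0.906 by limma). Both probe sets were higher in shLOXL2 in all 3 pairs of same-numbered arrays, and with the replicate number as a block their adjusted p by limma was 0.381 and 0.429.

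None of the probe sets with such differences was called. Over all probe sets limma called 1 (0.00309%) at an adjusted p under 0.05, which was lower in shLOXL2. Of the 14 at or above the CCL20 size, 13 had an unadjusted p under 0.05 by limma, with standard errors of 0.187 to 0.751. In 8 of the 14 every shLOXL2 array lay above every control, against 4.53% of all probe sets, and these 14 were picked for their difference. Within same-numbered arrays all 14 were higher in shLOXL2 in all 3 pairs, against 14.1% of all probe sets. With the replicate block all 14 had an unadjusted p under 0.05 by limma, against 2964 of all 32321 (1352 higher). The lowest adjusted p by limma among the 14 was 0.303. In 10 of the 14 shLOXL2 replicate 2 was the lowest of its group, and in 8 replicate 1 was the highest. The same was not counted over all probe sets, so this order is not read as particular to the 14. At the CXCL1 size errors covered more of the difference. Of 326 probe sets within 0.1 of 0.68, 157 had an unadjusted p under 0.05 by limma, and their median standard error was 0.284. The like window at the CCL20 size, within 0.1 of 1.29, held another set of 14. Of these, 11 had an unadjusted p under 0.05 by limma (all 14 with the replicate block), and the median standard error was 0.421. With the replicate block 262 of the 326 had an unadjusted p under 0.05 by limma and 0 passed after adjustment. Both windows were likewise picked by the difference. The counts over all probe sets are the 1781 and 2964 given above, in both directions.

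How many probe sets reached the chemokines' sizes depended on single arrays. Without shLOXL2 replicate 2 the counts were 4, 45, 61 and 563 for CXCL10, CXCL11, CCL20 and CXCL1. Without shControl replicate 1 they were 2, 43, 53 and 472, and without shControl replicate 2 they were 1, 21, 32 and 453. The other left-out arrays moved the counts less beyond the CXCL10 size, from 9, 14 and 266 with all arrays. Without shLOXL2 replicate 1 the counts were 1, 11, 16 and 262. Without shLOXL2 replicate 3 they were 0, 13, 15 and 330, and without shControl replicate 3 they were 2, 12, 17 and 354. The 1 call by limma was lost when any 1 array was left out. Which arrays the authors' deposited table was made from is not stated in it.

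**Figure D5:**
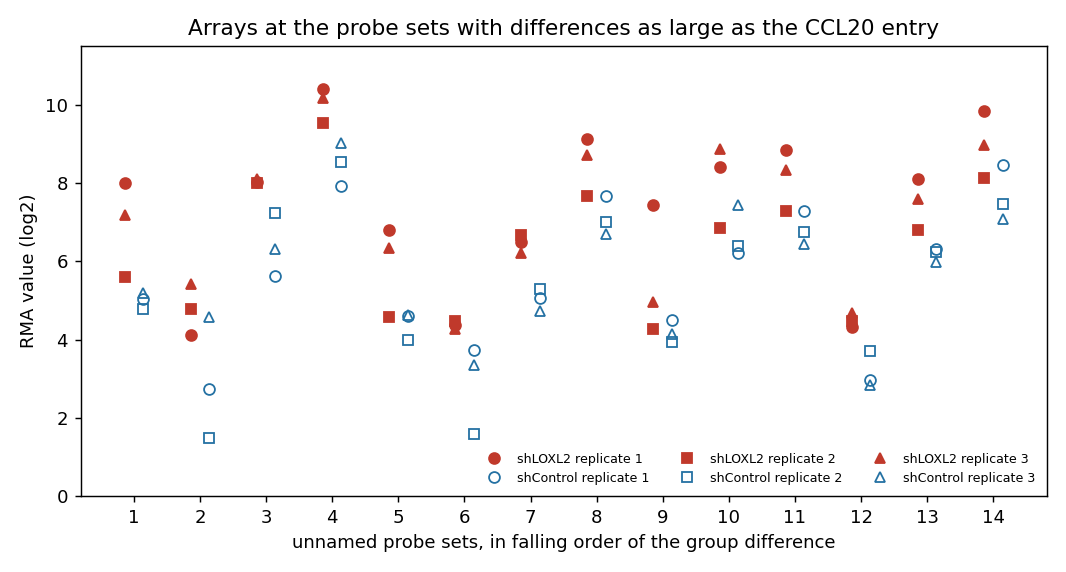
RMA values (log2) of each array at the 14 unnamed probe sets whose group difference was at or above the CCL20 entry of the authors' deposited table, in falling order of the difference (filled symbols shLOXL2, open symbols shControl, 1 shape per replicate number). In 8 of the 14 the filled symbols all lie above the open ones, and shLOXL2 replicate 2 is the lowest filled symbol in 10.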

How the data were processed

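Expression was measured in 3 shLOXL2 and 3 shControl samples of MDA-MB-231 cells, grouped by their titles. The authors deposited log2 values of 32321 probe sets per array, and the submitters' processing notes name RMA (version, build and annotation: not given in the sources used here). A second table was deposited, with the authors' log ratios for 724 entries, exported from Ingenuity Systems software per the file headers. Commas were read as decimal points and a leading question mark (312 entries) as a minus sign, after which the order had 0 breaks. Log base, direction and rule of selection are not stated in it.

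The 4 entries were found by symbol. Entries were matched to RefSeq symbols (GRCh38.p14): by current symbol, or by an older symbol where the file's symbol column repeats it. This named 683 entries, for 641 genes. The 4 members, the 16 lists and the tests were chosen with earlier results of these data known, and lists are described by counts and medians with no test. Promoters of 27305 genes, 250 bases before to 50 after the start, were searched on both strands in Python 3.11.15. Protein sequences were not used here. Named were the 4 genes, other listed chemokines and receptors, up to 6 genes per list by size, the 2 entries on either side of each member and chemokine neighbours on the chromosome.

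All probe sets entered 1 limma fit (version 3.58.1 under R 4.3.3) on group alone, with moderated variances and Benjamini-Hochberg adjustment, after a check on simulated data. Same-numbered arrays deviated together from their group means across probe sets (correlations 0.354, 0.452 and 0.160), so the numbers were taken as pairs by the data, not the labels, and the replicate block was an alternative. Other alternatives were the normalization, a filter on dim probe sets, the moderation, left-out arrays, the kind of rank, the symbol match and the promoter window. The number of arrays limits the precision.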

Additional observations from a re-analysis of the deposited data

How the results depend on the processing

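The values of the 4 chemokines are single numbers, so alternatives bear on their ranks, on the lists, on the motifs and on the arrays. Ranked by size, CXCL10, CXCL11, CCL20 and CXCL1 stood at 2, 10, 16 and 309 in the authors' deposited table, since entries listed lower then count too. Ranked over genes, they stood at 1, 6, 9 and 151. List counts (21 genes higher, 3 lower) were the same under both other symbol matches, and the number of the 4 promoters with each motif was the same in the 250 bases before the start. Of the probe sets at or above the CXCL10, CXCL11, CCL20 and CXCL1 sizes, 1, 4, 8 and 172 were left without those below the median level, because fewer were counted. With shControl replicate 1 as the only control (whose spread was then taken from the shLOXL2 arrays) they numbered 19, 92, 114 and 1279, and limma called 0 probe sets (3975 at an unadjusted p under 0.05). The cause of that rise was not tested. With any 1 array left out they ranged from 0 to 4, 11 to 45, 15 to 61 and 262 to 563, and limma called 0 to 0 (1063 to 2250 at an unadjusted p under 0.05). The replicate block, a paired fit, gave 1 call and changed no call, while the probe sets at an unadjusted p under 0.05 rose from 1781 to 2964. With complete pairs a block leaves each difference, and so the counts of 2, 9, 14 and 266, as they were. Quantile normalization and median centring kept these counts within 1.5 times, and 1 call was made under both and under trend and robust moderation.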
